A study of Mus musculus with 12 samples.

Results

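The 12 arrays of the series were compared as 6 Ifnb-/- against 6 Ifnb+/+ cultures of cerebellar granule neurons (CGNs), with treatment as a covariate, so that each genotype was represented equally by untreated cultures and by cultures given IFN-β. The comparison used all 12 of the 12 arrays and averaged the genotype difference over untreated cultures and cultures given the missing cytokine for 24 hr. The average does not by itself show that a difference remained with IFN-β. The groups were untreated Ifnb+/+, untreated Ifnb-/-, Ifnb+/+ +IFN-b and Ifnb-/- +IFN-b, with 3 cultures each. IFN-β was given at 100 U/ml, and all cultures came from pups of 7 days per the labels and were lysed on day 3. All animals were of the B10.RIII strain by the labels, the knockout having been backcrossed to it, and the methods count heterozygous littermates as wild type, so that an Ifnb+/+ culture may hold 1 targeted allele. Every gene was read from 1 probe set of the Affymetrix mouse genome array, the brightest of those naming that gene alone, which gave 18193 genes. Values are log2 RMA values, and a difference is Ifnb-/- minus Ifnb+/+ on that scale, so that a difference of 1 is a 2-fold change.

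IFN-β is a secreted cytokine that binds the IFNAR1/IFNAR2 receptor and signals through receptor-bound kinases to the nucleus. There a short promoter element drives a large set of interferon-stimulated genes, among them antiviral effectors, the MHC class I pathway and negative regulators of the receptor. A low tonic activity of this pathway is known without infection. In a backcrossed knockout, DNA next to the targeted allele can still come from the strain of the embryonic stem cells. CGNs are the small glutamatergic neurons of the cerebellar cortex.

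Ifnb1 itself read between 2.48 and 3.06 on all 12 arrays, near the lower end of the scale, so its values do not check the genotype labels. Array medians lay between 4.33 and 4.42. The median SD of a gene was 0.201 in untreated Ifnb+/+, 0.0872 in untreated Ifnb-/-, 0.171 in Ifnb+/+ +IFN-b and 0.154 in Ifnb-/- +IFN-b. The granule neuron list, 28 measured markers such as the transcription factors Neurod1, Pax6 and Zic1, averaged 8.41 to 8.77 per array. Sex-linked genes were uneven between arrays. Xist, the RNA of the inactive X chromosome, read 5.08 on Ifnb+/+ +IFN-b replicate 3 and 4.34 on Ifnb-/- +IFN-b replicate 2, against 9.17 to 10.94 on the remaining arrays, and Y-linked Eif2s3y was higher in untreated Ifnb-/- (6.64 to 6.88) than in untreated Ifnb+/+ (4.89 to 4.99). The same 2 arrays stood apart in the mean of the cell cycle list, at 6.53 on each against 5.29 to 5.85 on the remaining arrays, and in that of astrocyte markers, at 8.44 and 8.65 against 7.61 to 8.13. Their means of the interferon-stimulated list, 9.22 and 7.60, were the highest of their groups. The part of culture sex, astrocytes and dividing cells in the results was not tested beyond a fit without both arrays of low Xist. That fit kept every untreated array, so it does not address the Y-linked difference between the untreated genotypes. The labels do not say whether cultures came from separate litters, so p-values measure the spread between these cultures.

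Over both treatments 26 of 18193 genes (0.143%) were called at an adjusted p under 0.05 by limma, 6 higher (0.033%) and 20 lower (0.11%) in Ifnb-/- CGNs. The lower genes held members of the interferon-stimulated gene list (Usp18, Ifi27l2a, Lgals3bp, Ccl5) and the classical MHC class I genes H2-K1 and H2-D1. They also held the Fc receptors Fcgr1 and Fcgr4, the cytokine Il1a, the cell cycle inhibitor Cdkn1c, and genes of chromosome 4 such as Ndufs5 and Rragd. The higher genes were Snapc3, Cachd1, Unc5d, Gabra6, Gpbp1l1 and Col19a1. Sizes ran from 0.43 for Slfn2 to 1.68 for Usp18, with 9 genes changed at least 2-fold. In 18 of the 26 genes the 6 Ifnb-/- arrays did not overlap the 6 Ifnb+/+ arrays, against 79 of all genes (0.434%). These were 5 higher and 13 lower genes, against 21 (0.115%) and 58 (0.319%) of all genes. All 26 had the same sign in untreated and in treated cultures, which the averaged test favours, and the treated difference was 0.40 to 2.0 times the untreated one, with a median of 0.89.

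**Figure D1:**
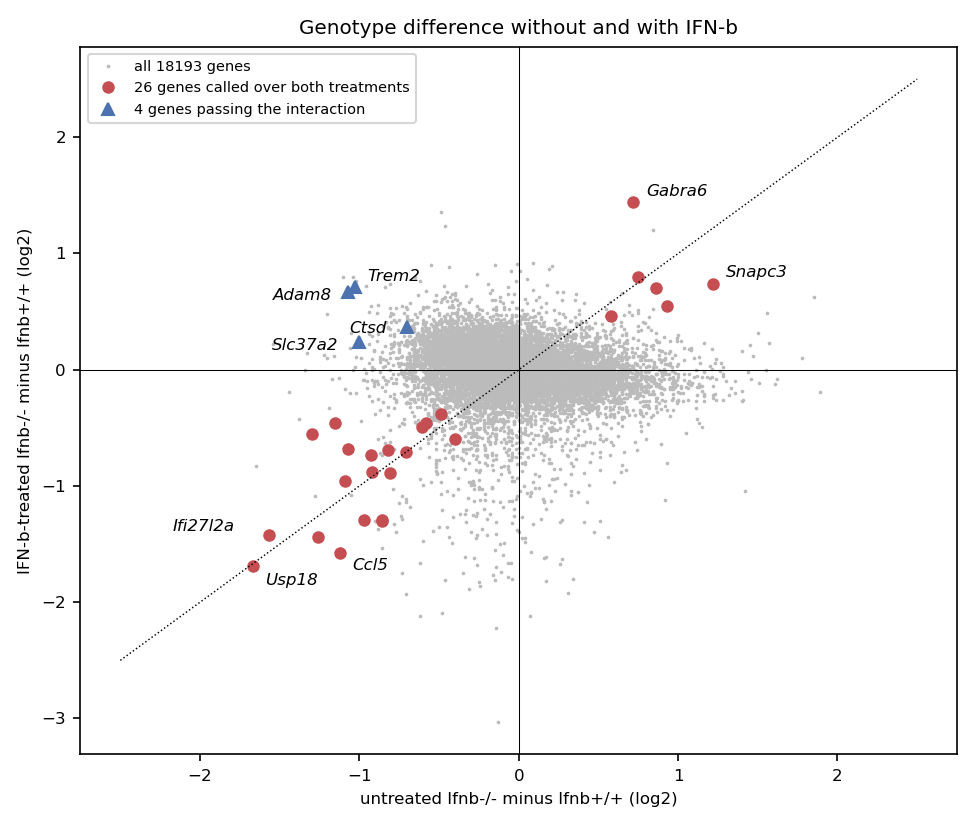
Each point is a gene, with the untreated genotype difference on the x axis and the IFN-β-treated one on the y axis, both log2 Ifnb-/- minus Ifnb+/+. Grey points are all 18193 genes, red circles the 26 called over both treatments and blue triangles the 4 genes that passed the interaction, and the dotted line marks equal differences. The called genes lie at the lower left and upper right, while the 4 interaction genes lie at the upper left.

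The number of called genes depended on single arrays. It was 3 without untreated Ifnb-/- replicate 1, 7 without replicate 2 and 11 without replicate 3 of that group, 9 and 4 without untreated Ifnb+/+ replicates 2 and 3, and 4 and 13 without Ifnb-/- +IFN-b replicates 1 and 3. Leaving out any of the other arrays gave 19 to 30. Ifi27l2a, Ndufs5 and Ccl5 were called in all 12 fits that left out 1 array, and Tmem69 in 11 of them. Of the 26 genes, 9 were called in over 6 of these fits and the others in 6 or fewer. Gabra6, H2-K1 and Cdkn1c were called in 5, Fcgr1 and Rps6 in 4, and H2-D1, Lgals9, Patj and Slc15a3 in 3. Fcgr4, Il1a, Nuak2, Slfn2, Col19a1 and Gpbp1l1 were called in 2 and Tspo in 1. Leaving out both arrays with low Xist, an alternative chosen after seeing the data, gave 21 called genes, of which 15 were among the 26.

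Ifi27l2a, a small interferon-inducible membrane protein gene on chromosome 12, had the smallest p. It read 5.79, 5.96 and 5.55 in untreated Ifnb+/+ against 4.14, 4.00 and 4.46 in untreated Ifnb-/-, and 5.69, 5.84 and 5.63 against 4.32, 4.02 and 4.56 with IFN-β. The highest Ifnb-/- array (4.56) lay well below the lowest Ifnb+/+ array (5.55), with no overlap. The difference was -1.49 (SE 0.12, adjusted p = 0.000208), a 2.81-fold lower level. Its level barely moved with IFN-β, with changes of -0.05 in Ifnb+/+ and 0.10 in Ifnb-/-.

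Usp18, the protease that removes ISG15 from proteins and dampens the type I interferon receptor, behaved otherwise. It read 5.09, 3.52 and 4.63 in untreated Ifnb+/+ against 2.69, 2.62 and 2.94 in untreated Ifnb-/-. With IFN-β it read 10.67, 11.22 and 11.79 in Ifnb+/+ against 9.57, 9.54 and 9.48 in Ifnb-/-. It rose by 6.81 in Ifnb+/+ and by 6.78 in Ifnb-/-, and the groups did not overlap within either treatment. The untreated Ifnb-/- values lay near the lower end of the scale, where Ifnb1 also read, so the untreated difference and the rise in Ifnb-/- may be understated. The difference was -1.67 untreated and -1.69 treated, and -1.68 over both (SE 0.24, adjusted p = 0.0172), a 3.21-fold lower level.

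Ccl5, a chemokine that attracts T cells and monocytes, read 6.04, 6.39 and 6.09 in untreated Ifnb+/+ and 6.66, 6.77 and 6.57 with IFN-β, against 5.01, 5.06 and 5.10 and then 5.18, 4.49 and 5.58 in Ifnb-/-. The highest Ifnb-/- array lay below the lowest Ifnb+/+ array, and the difference was -1.35 (SE 0.16, adjusted p = 0.00955). Lgals3bp, a secreted galectin-binding glycoprotein, differed by -1.13 (SE 0.16, adjusted p = 0.0172) and rose with IFN-β by 1.47 in Ifnb+/+ and 1.15 in Ifnb-/-. Usp18, Lgals3bp and Lgals9 were the 3 lower genes that rose by more than 1 log2 unit with IFN-β in Ifnb+/+. In 16 of the 20 lower genes the treated Ifnb-/- mean stayed under the untreated Ifnb+/+ mean, and in 4 it was above. The 20 were chosen as lower over both treatments and few rose much with IFN-β, so this count partly follows from the choice. No count over all genes stands beside it.

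Of 46 measured interferon-stimulated genes 4 were called, all lower (Usp18, Ifi27l2a, Lgals3bp and Ccl5). Genes with an unadjusted p under 0.05 are named nominally lower or higher here, and 36 of the 46 were nominally lower and 0 nominally higher, where 5.1% of all genes were nominally lower and 2.27% nominally higher. The list's median difference was -0.90, against -0.03 over all genes, of which 10709 of 18193 (58.9%) had a negative difference. It was -0.46 in untreated and -1.29 in treated cultures, and 43 of the 46 members had the more negative difference with IFN-β. No count over all genes stands beside the 43. The change of the difference between treatments was called by limma for none of the 46 (lowest adjusted p = 0.32, for Dtx3l). The list's median rise with IFN-β was 3.78 in Ifnb+/+ and 2.65 in Ifnb-/-. The mean of the list over the arrays was 4.67 to 4.80 in untreated Ifnb+/+, 4.21 to 4.26 in untreated Ifnb-/-, 7.61 to 9.22 in treated Ifnb+/+ and 6.95 to 7.60 in treated Ifnb-/-, so the genotypes did not overlap within a treatment. The margin with IFN-β was set by Ifnb+/+ +IFN-b replicate 1, the lowest of its group at 7.61, beside Ifnb-/- +IFN-b replicate 2 at 7.60.

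The receptor and signaling list had 1 called member of 28, again Usp18, and a median of -0.29, with 10 members nominally lower and 0 nominally higher. The receptor chain Ifnar2 read 6.72 to 6.79 in untreated Ifnb+/+ and 6.49 to 6.54 in untreated Ifnb-/-, but its difference of -0.30 was not called (SE 0.07, adjusted p = 0.206). Ifnar1 read 7.02 to 7.44 over all arrays, and its genotypes overlapped.

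MHC class I molecules present peptides to CD8 T cells. H2-K1, a classical heavy chain, read 9.25, 8.98 and 9.09 in untreated Ifnb+/+ against 7.90, 7.72 and 7.93 in untreated Ifnb-/-, and 9.36, 9.97 and 10.76 against 8.39, 9.03 and 8.35 with IFN-β. The groups were apart within each treatment, while Ifnb-/- +IFN-b replicate 2 at 9.03 lay above untreated Ifnb+/+ replicate 2 at 8.98. The difference was -1.35 (SE 0.20, adjusted p = 0.0221). H2-D1, the other called heavy chain, differed by -1.08 (SE 0.17, adjusted p = 0.0302) with no overlap, its Ifnb-/- arrays reading 8.08 to 8.48 and its Ifnb+/+ arrays 8.93 to 10.27. H2-K1 and H2-D1 are near-identical in sequence, so their separate values are uncertain. In the list of 18 class I presentation genes these 2 were called, 14 were nominally lower and 0 nominally higher, and the median difference was -0.80, with -0.50 untreated and -1.16 treated. The change between treatments was not called by limma for any member.

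**Figure D2:**
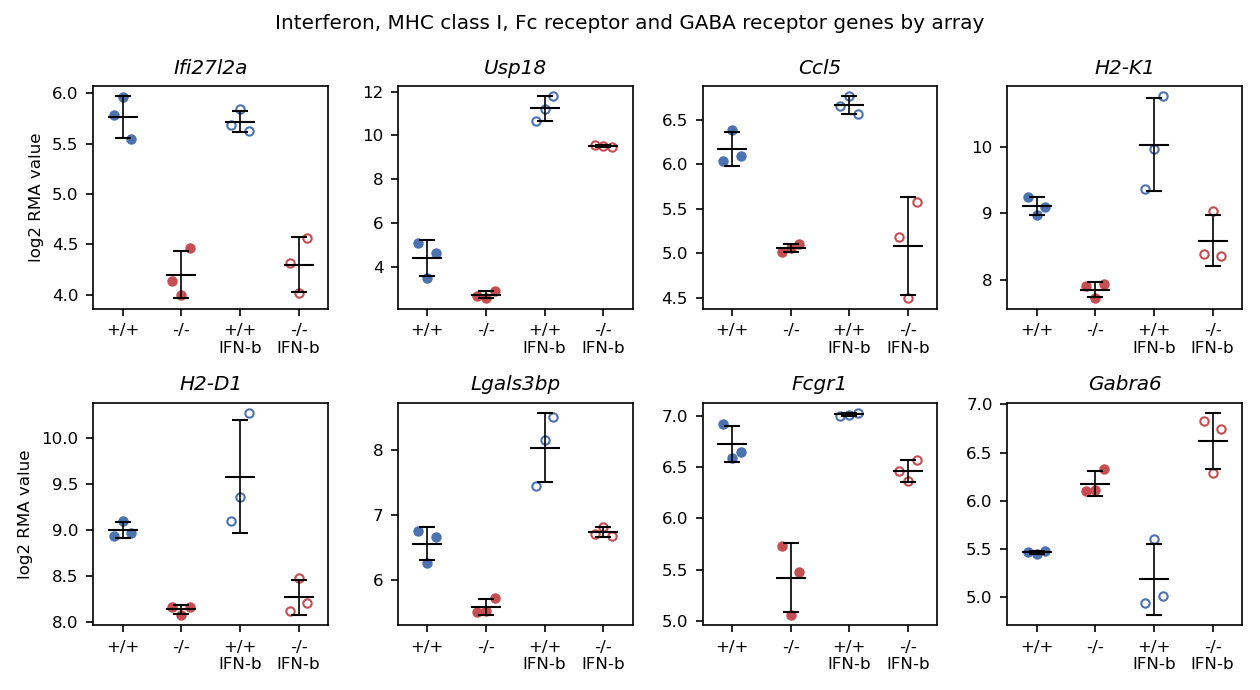
Log2 RMA values on every array for 8 called genes, in blue for Ifnb+/+ and red for Ifnb-/-, filled for untreated and open for IFN-β-treated cultures, with the mean and SD of 3 arrays as black bars. Ifi27l2a is apart by genotype and flat with treatment, Usp18 is lower in Ifnb-/- in both treatments, and Gabra6 alone of the 8 is higher in Ifnb-/-.

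Promoters of the called genes were searched for the interferon-response core, GAAA followed by any 2 bases and a second GAAA, on both strands of the 250 bases before the start in RefSeq (GRCm38.p6). Among the 20 lower genes, 13 had a promoter sequence and 2 of these held the core (15.4%), against 453 of 14452 measured genes with a sequence (3.13%) and 14 of 31 members of the interferon-stimulated list (45.2%). Of the 5 higher genes with a sequence 0 held it. Both matches follow, being those found among the called genes that had a sequence. The core is in capitals with 20 bases to each side, 5′ to 3′ on the gene's strand. Fcgr4 lies on the plus strand at chr1:171018833-171018882 and Lgals9 on the minus strand at chr11:78984950-78984999, where the core is read on the opposite strand to the gene.
Fcgr4: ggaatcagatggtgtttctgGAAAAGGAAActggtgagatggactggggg
Lgals9: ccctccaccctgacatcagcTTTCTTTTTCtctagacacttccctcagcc
A match is a description of the letters and not a measured binding site.

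Lgals9, a galectin that binds sugars on immune cells, was named after its values were seen. It read 6.22 to 6.53 in untreated Ifnb+/+, 5.41 to 5.57 in untreated Ifnb-/-, 7.68 to 8.89 in treated Ifnb+/+ and 6.91 to 7.09 in treated Ifnb-/-. The genotypes were apart within each treatment, and the difference was -1.08 (SE 0.17, adjusted p = 0.0302). Fcgr4, an IgG receptor of mouse myeloid cells, read 3.84 to 4.26 in Ifnb+/+ and 3.44 to 3.74 in Ifnb-/- over both treatments, with a difference of -0.52 (SE 0.08, adjusted p = 0.0302). With IFN-β it changed by 0.10 in Ifnb+/+ and 0.23 in Ifnb-/-, where Lgals9 rose by 1.94 and 1.50.

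Fcgr1, the high-affinity IgG receptor, read 6.92, 6.59 and 6.65 in untreated Ifnb+/+ against 5.73, 5.06 and 5.48 in untreated Ifnb-/-, and 7.00, 7.01 and 7.03 against 6.46, 6.36 and 6.57 with IFN-β. At the probe set read, the 6 Ifnb-/- arrays lay under the 6 Ifnb+/+ arrays. At a dimmer second probe set of Fcgr1 the difference was -0.33, and the genotypes overlapped. The following values are for the probe set read. The difference was -0.92 (SE 0.15, adjusted p = 0.0355), and was larger untreated (-1.30) than treated (-0.55), although the change of the difference was not called (adjusted p = 0.323). Fcgr1 was the 1 called gene among 29 microglial markers. That list had 5 nominally lower and 0 nominally higher members, 27 of 29 with a negative difference, and a median of -0.20, with -0.25 untreated and -0.12 treated. Its mean over the list was 6.43 to 6.70 in untreated Ifnb+/+, 6.18 to 6.29 in untreated Ifnb-/-, 5.90 to 6.22 in treated Ifnb+/+ and 5.87 to 6.02 in treated Ifnb-/-, so the genotypes overlapped with IFN-β. In RNA of whole cultures, fewer cells of a type and less RNA per cell cannot be told apart, and the part of microglial cells in the differences of the Fc receptor, complement and cytokine genes was not tested.

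In the complement and Fc receptor list 2 of 19 genes were called, Fcgr1 and Fcgr4, both lower, and the median was -0.26. Among 32 chemokines and inflammatory cytokines Ccl5 and Il1a were called, 31 members had a negative difference, 12 were nominally lower and 0 nominally higher, and the median was -0.31. Il1a, an alarmin cytokine, read low on every array, 2.93 to 3.55 in Ifnb+/+ and 2.59 to 2.90 in Ifnb-/-, without overlap. Its difference was -0.50 (SE 0.08, adjusted p = 0.0355).

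Other lower genes belonged to none of the immune lists above. Cdkn1c, the cyclin-dependent kinase inhibitor p57, read 8.02, 8.86 and 8.52 in untreated Ifnb+/+ against 7.41, 7.33 and 7.38 in untreated Ifnb-/-, and 7.87, 7.83 and 8.42 against 6.82, 7.37 and 7.04 with IFN-β. Its genotypes did not overlap, and the difference was -1.03 (SE 0.15, adjusted p = 0.0221). It was the 1 called member of 39 cell cycle genes, whose median was -0.19, with -0.36 untreated and -0.02 treated. Nuak2, an AMPK-related kinase, read 4.75 to 5.15 in Ifnb+/+ and 3.91 to 4.59 in Ifnb-/-, with a difference of -0.55 (SE 0.09, adjusted p = 0.0355). Slc15a3, a lysosomal histidine and peptide transporter (-0.75, adjusted p = 0.0372), was also lower. So was Slfn2, a Schlafen family gene (-0.43, adjusted p = 0.0360). Tspo, the translocator protein of the outer mitochondrial membrane, was lower as well (-0.71, adjusted p = 0.0479). In each of them the genotypes overlapped over both treatments but were apart within each treatment, narrowly for treated Slc15a3 (6.42 against 6.39). They were named after their values were seen. Tspo stood just inside the threshold and Slc11a1, at an adjusted p of 0.0515, just outside it.

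Among the higher genes, Gabra6 encodes the GABA-A receptor subunit that marks mature granule neurons. It read 5.47, 5.45 and 5.48 in untreated Ifnb+/+ against 6.10, 6.11 and 6.33 in untreated Ifnb-/-, and 4.94, 5.61 and 5.01 against 6.83, 6.29 and 6.75 with IFN-β. All 6 Ifnb-/- arrays lay above all 6 Ifnb+/+ arrays, and the difference was 1.08 (SE 0.16, adjusted p = 0.0231), a 2.11-fold higher level. A dimmer second probe set of Gabra6 differed by 0.92, and there the genotypes overlapped. Unc5d, a receptor of the netrin receptor family, read 3.78 to 4.51 in Ifnb+/+ and 4.74 to 5.29 in Ifnb-/-, with a difference of 0.78 (SE 0.12, adjusted p = 0.0221). Col19a1, a collagen gene named after its values were seen, differed by 0.74 (SE 0.12, adjusted p = 0.0390), with Ifnb+/+ +IFN-b replicate 2 (6.51) above Ifnb-/- +IFN-b replicate 2 (6.43).

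Gabra6 was the 1 called member of 28 granule neuron markers. The list held 26 members with a positive difference, 7 nominally higher and 1 nominally lower, and its median was 0.20, with 0.22 untreated and 0.09 treated. The median of 12 Purkinje cell markers was 0.26, with 0.32 untreated and 0.08 treated, 2 nominally higher and 0 nominally lower. That of 12 GABAergic interneuron markers was -0.05, and neither list held a called gene. Among 30 GABA-A and glutamate receptor genes Gabra6 was also the 1 called, with 6 nominally higher and 2 nominally lower. The median of that list was 0.24, with 0.13 untreated and 0.02 treated. No synaptic vesicle gene of 33 was called, while 7 were nominally higher and 0 nominally lower, led by the vesicle protein gene Synpr (0.53, SE 0.13, adjusted p = 0.247), whose difference was 0.89 untreated and 0.16 treated. Unc5d was the 1 called gene among 45 guidance genes of the Slit, netrin and semaphorin families, with a median of -0.01, and none of 21 Eph receptors and ephrins was called. Epha5, an Eph receptor and the leading member, differed by 1.56 untreated and 0.49 treated (1.02 over both, adjusted p = 0.324).

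Chromosome 4, which carries Ifnb1, held 8 of the 26 called genes. That was 8 of 1087 measured genes there (0.736%), 3 higher and 5 lower, against 18 of 16942 on other chromosomes (0.106%). This is a count and was not tested, and whether DNA around Ifnb1 differs between the genotypes was not tested either. Taking protein-coding genes in order, Snapc3 lay 18 genes and Rps6 6 genes before Ifnb1, Patj 62, Cachd1 76, Tmem69 217, Gpbp1l1 218 and Ndufs5 337 genes after it, and Rragd 338 genes before it. Within 50 genes to each side 2 of 67 measured genes were called, against 6 of 952 beyond. The counts were 4 of 141 against 4 of 878 at 100 genes, and 4 of 291 against 4 of 728 at 200 genes. No other gene within 30 steps of Ifnb1 was called, and Focad, 2 genes away, had 6 Ifnb-/- arrays under the 6 Ifnb+/+ arrays without passing (-0.29, adjusted p = 0.181).

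**Figure D3:**
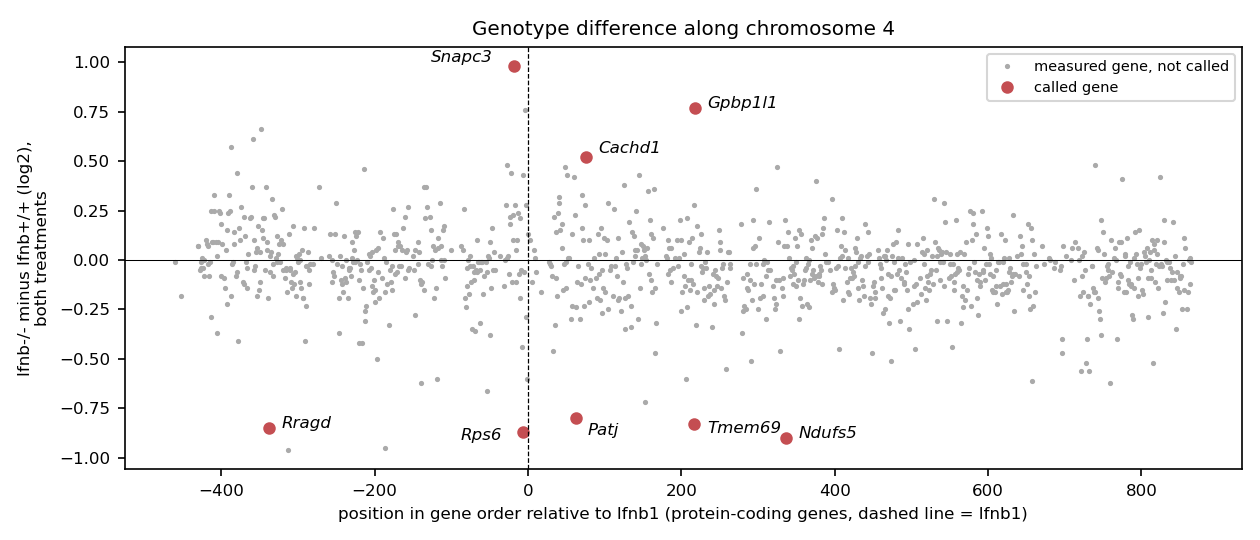
The genotype difference over both treatments (log2, y axis) of 1019 measured protein-coding genes of chromosome 4, placed by their position in gene order relative to Ifnb1 (x axis, dashed line). Red circles are the 8 called genes, 3 above and 5 below zero, and small grey points the genes not called.

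Snapc3, a subunit of the complex that starts transcription of small nuclear RNA genes, read 6.53, 7.03 and 6.81 in untreated Ifnb+/+ against 7.94 to 8.08 in untreated Ifnb-/-, and 6.86, 6.96 and 7.30 against 7.92, 7.60 and 7.83 with IFN-β. There was no overlap, and the difference was 0.98 (SE 0.13, adjusted p = 0.0109). Its probe sets disagreed, with differences of 0.91, 0.25 and -0.94 at its other 3 probe sets, so the direction holds for the probe set read here. Rps6, a protein of the small ribosomal subunit, read 5.60 to 6.34 in Ifnb+/+ and 4.90 to 5.42 in Ifnb-/- without overlap, with a difference of -0.87 (SE 0.14, adjusted p = 0.0302). It was the 1 called gene of 36 cytosolic ribosomal protein genes, whose median was -0.05. Those genes averaged 10.06 to 10.31 per array, far above the Rps6 probe set read here. The other Rps6 probe set, at a mean level of 2.09, differed by -0.13.

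Ndufs5, a subunit of respiratory complex I, read 9.08, 9.24 and 9.12 in untreated Ifnb+/+ against 8.18, 8.12 and 8.39 in untreated Ifnb-/-, and 9.23, 9.54 and 9.41 against 8.54, 8.30 and 8.72 with IFN-β. The genotypes did not overlap, and the difference was -0.90 (SE 0.09, adjusted p = 0.00247), with -0.92 untreated and -0.88 treated. It was the 1 called gene of 34 complex I genes, whose median was -0.01 over both treatments, -0.22 untreated and 0.17 treated. Of 41 genes of complexes II to V none was called, and their median was -0.02.

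Rragd, a Rag GTPase that carries amino acid signals to mTORC1, read 6.67 to 7.26 in Ifnb+/+ and 6.05 to 6.25 in Ifnb-/-, with a difference of -0.85 (SE 0.11, adjusted p = 0.0109). Tmem69, a transmembrane protein gene, read 6.01 to 6.57 in Ifnb+/+ and 5.33 to 5.52 in Ifnb-/- (-0.83, SE 0.10, adjusted p = 0.00955). Its direct neighbour Gpbp1l1 moved the other way, from 3.63 to 4.14 in Ifnb+/+ to 4.35 to 5.03 in Ifnb-/- (0.77, SE 0.13, adjusted p = 0.0355). Cachd1, a relative of the auxiliary subunits of calcium channels, read 7.42 to 7.75 against 8.16 to 8.34 untreated and 7.88 to 7.94 treated in Ifnb-/- (0.52, SE 0.07, adjusted p = 0.0136). Patj, a scaffold of the Crumbs cell polarity complex, read 4.80 to 5.64 in Ifnb+/+ and 4.19 to 4.58 in Ifnb-/- (-0.80, SE 0.14, adjusted p = 0.0390), with -1.15 untreated and -0.46 treated. None of these 5 genes overlapped between the genotypes at the probe set read. Other probe sets of 4 of them showed smaller differences, -0.49, 0.03 and -0.04 for Tmem69, -0.29 and -0.08 for Rragd, 0.12 for Cachd1, and -0.67, -0.12 and 0.01 for Patj. With all probe sets of a gene averaged, Rragd stayed called (-0.41, adjusted p = 0.0333). Tmem69 (-0.33, adjusted p = 0.260), Cachd1 (0.32, adjusted p = 0.103), Patj (-0.40, adjusted p = 0.188), Snapc3 (0.30, adjusted p = 0.696) and Rps6 (-0.50, adjusted p = 0.132) were not called by limma on such averages.

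**Figure D4:**
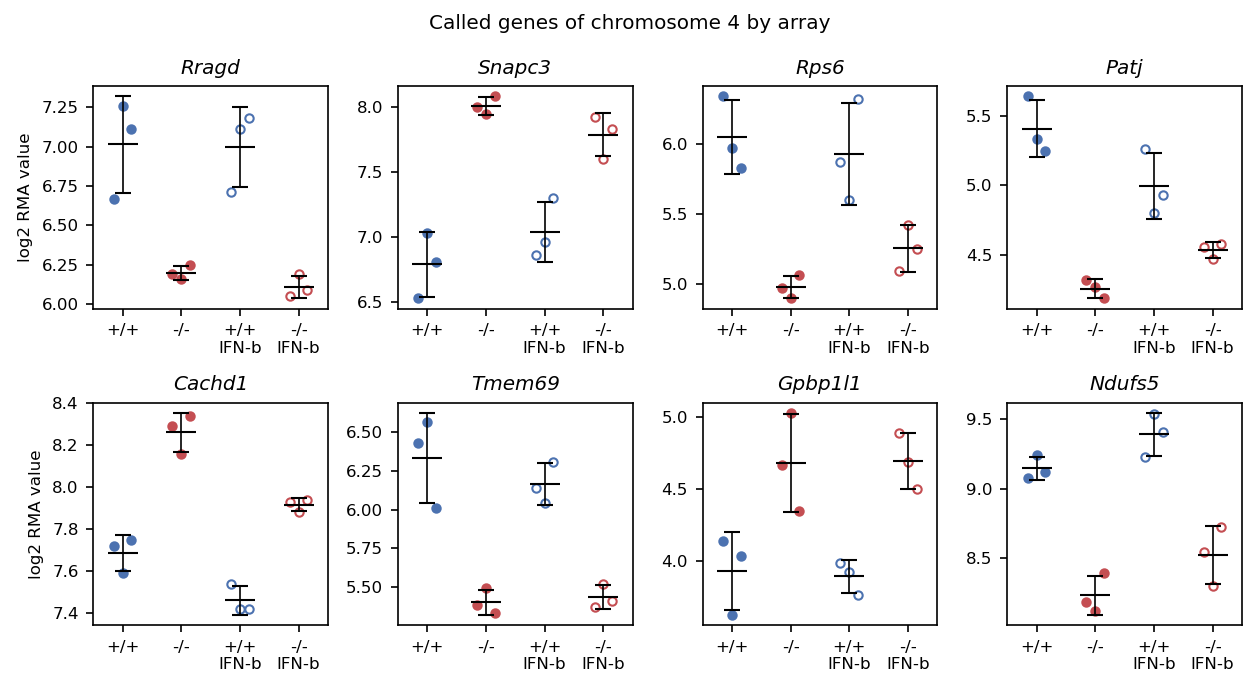
Log2 RMA values on every array for the 8 called genes of chromosome 4, in blue for Ifnb+/+ and red for Ifnb-/-, filled for untreated and open for IFN-β-treated cultures, with the mean and SD of 3 arrays as black bars. In each panel the Ifnb-/- arrays lie apart from the Ifnb+/+ arrays in both treatments, above them for Snapc3, Cachd1 and Gpbp1l1 and below them for the other 5 genes.

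The remaining lists held no called gene. All 21 antioxidant genes of the NRF2 type had a negative difference, 5 of them nominally lower, and their median was -0.21, with -0.34 untreated and -0.13 treated. Hmox1, which degrades heme, led them with -0.52 (adjusted p = 0.406). The 46 cathepsins, hydrolases and membrane proteins of lysosomes had a median of -0.17, with -0.32 untreated and 0.00 treated, and 7 were nominally lower and 0 nominally higher. Medians were -0.04 for 46 genes of the autophagy machinery, 0.00 for 15 familial Parkinson disease genes, 0.03 for 41 neurotrophin signaling genes and -0.11 for 33 proteasome subunits, against -0.03 over all genes. The cholesterol synthesis list had a median of 0.14, with 4 of 26 genes nominally higher and 1 nominally lower, led by Hmgcs1, an early enzyme of the pathway (0.56, adjusted p = 0.333). Astrocyte markers (20 genes, -0.12), endothelial and pericyte markers (21 genes, -0.12), meningeal fibroblast markers (20 genes, -0.17) and oligodendrocyte markers (20 genes, 0.03) had no called member. Endothelial and pericyte markers held 6 nominally lower and 0 nominally higher genes, with a median of -0.25 untreated and -0.03 treated. Meningeal markers held 4 and astrocyte markers 2 nominally lower genes with 0 nominally higher, while oligodendrocyte markers held 2 nominally higher and 0 nominally lower. The part of these cells in the differences of other genes was not tested.

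**Figure D5:**
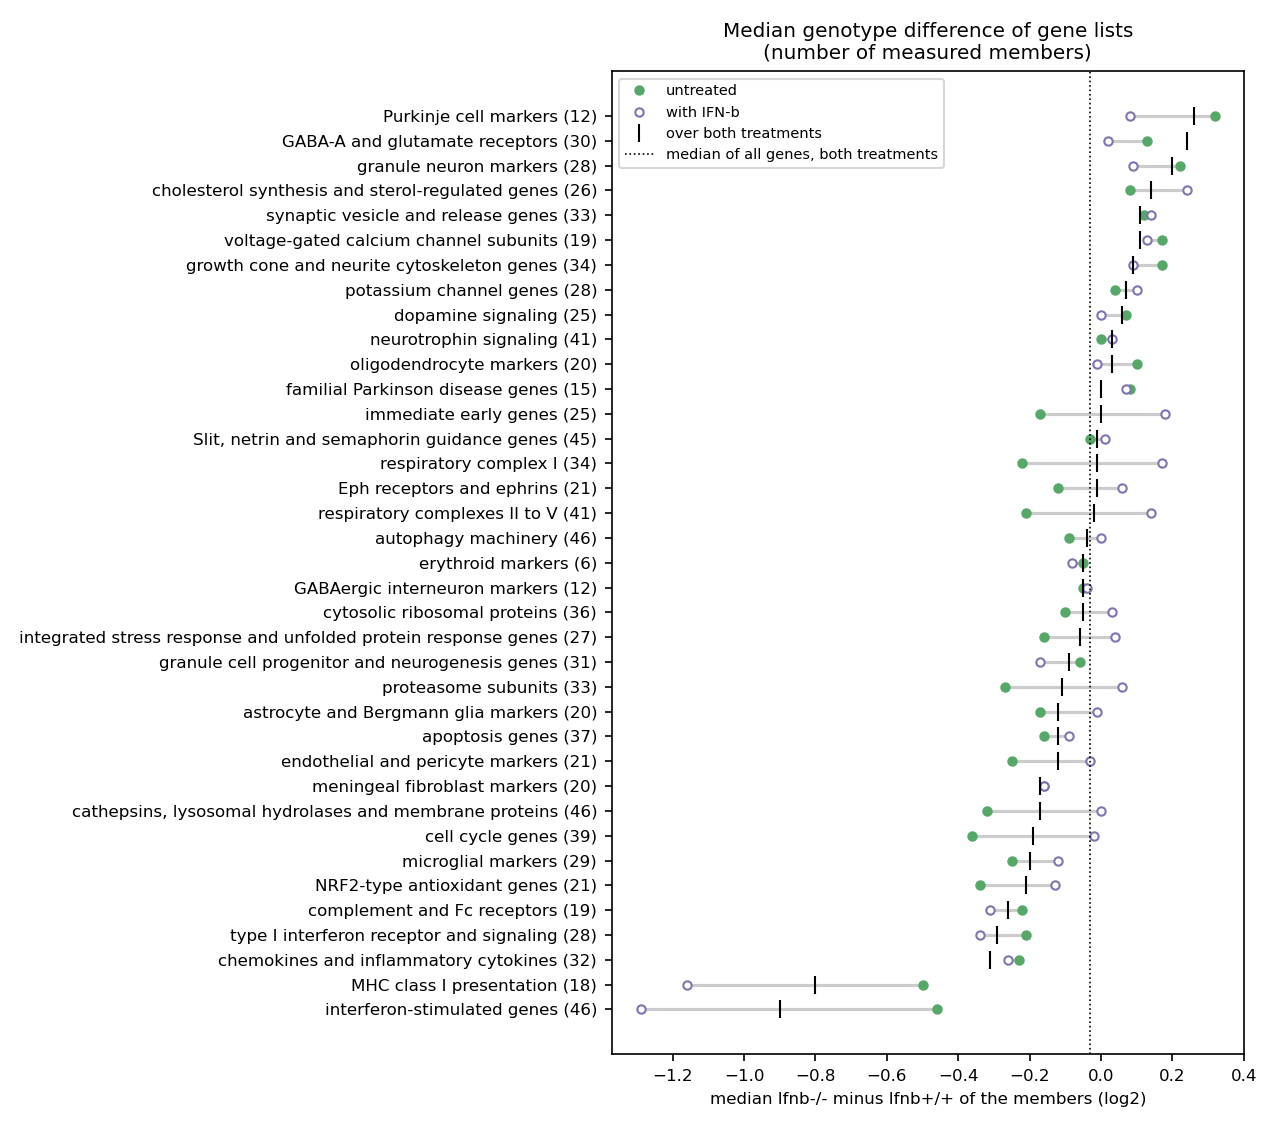
Median log2 genotype difference of the members of 37 gene lists, with green points for untreated cultures, open points for IFN-β-treated cultures, black bars for both treatments and the number of measured genes in brackets. The list of sex-linked genes (median 0.92) is not plotted, and of the lists shown interferon-stimulated genes (-0.90) and MHC class I presentation (-0.80) lie farthest from the median of all genes (-0.03, dotted line).

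The average over both treatments hid genes whose difference changed with IFN-β. The interaction of genotype and treatment passed for 4 genes (0.022%), Adam8, Trem2, Ctsd and Slc37a2, at adjusted p of 0.0120, 0.0120, 0.0414 and 0.0414. Trem2, a microglial lipid receptor, read 6.79, 6.75 and 6.49 in untreated Ifnb+/+ against 5.75, 5.54 and 5.67 in untreated Ifnb-/-, and 5.19, 4.95 and 5.39 against 5.70, 5.93 and 6.01 with IFN-β. The genotypes were apart in both treatments but in opposite order, so the difference was -1.03 untreated, 0.71 treated and -0.16 over both. Adam8, a metalloprotease, went from -1.07 to 0.67, Ctsd, the lysosomal protease cathepsin D, from -0.70 to 0.37, and Slc37a2, a sugar phosphate transporter, from -1.0 to 0.24. In these 4 genes the Ifnb+/+ level fell by 1.13 to 2.03 with IFN-β, while the Ifnb-/- level moved by -0.29 to 0.23. In none of them was the treated difference itself called by limma with 4 group means (adjusted p from 0.153 to 0.988). Without Ifnb+/+ replicate 2 the interaction passed for 1237 genes and without Ifnb+/+ +IFN-b replicate 1 for 61, while it passed for 0 to 2 without any of the other arrays.

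The treatments taken alone showed how much the averaged comparison drew on each. In the 6 untreated arrays alone 19 genes were called (0.104%), of which 12 had the same direction in treated cultures and 7 were called over both treatments. In the 6 treated arrays alone limma called 0 genes, with 758 (4.17%) reaching a p under 0.05 before adjustment, against 3466 (19.1%) in the untreated arrays. These 2 fits share no array. In the model of 4 group means over all 12 arrays, which pools the spread, 21 genes were called untreated (0.115%) and 11 with IFN-β (0.0605%), 1 higher and 10 lower. Of these 11, 4 were also called over both treatments, Ifi27l2a and Gabra6 (both at an adjusted p of 0.0221 in treated cultures), Ccl5 (0.0226) and Ndufs5 (0.0449). In the fits of 6 arrays, a p under 0.05 in both treatments was reached by 136 genes in the same direction, 19 higher and 117 lower, and by 61 in opposite directions. Across genes the untreated and the treated differences correlated at r = -0.13, a description over 18193 genes that are not independent replicates.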

How the data were processed

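RNA of 12 CGN cultures was hybridized to 1 Affymetrix array each. The authors quantile-normalized the arrays, ran RMA in Arraystar and deposited a table with 45037 probe sets in log2 units. RMA equalizes the arrays' distributions, which would hide a shift of all genes. Values were not normalized again. Of the probe sets, 34945 name 1 gene, 932 several and 9160 none, by the platform annotation, and the last 2 kinds were left out. RefSeq gave the chromosome of 18029 of 18193 genes.

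The genotype comparison was a limma fit (version 3.58.1, R version 4.3.3) with genotype and treatment in the model (9 residual degrees of freedom), moderated by empirical Bayes, and p-values were adjusted over all genes by Benjamini-Hochberg. The interaction used a model of 4 group means (8 residual degrees of freedom). The 38 gene lists were described by counts and medians, with no set test. The comparison, its members and the lists were chosen with earlier results of these data known. Genes named were, of those called and free of overlap between the genotypes' arrays, the 15 with the largest change each way, then up to 3 called members of each list or its leading member, Ifnb1, Ifnar1 and Ifnar2, genes passing the interaction, and the called genes nearest Ifnb1, up to 5 on each side.

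The code was tested on simulated data. Alternatives changed the probe set rule, a filter on dim genes, the normalization, the model, the variance, the threshold, the test and the arrays used. The number of arrays limits the precision.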

Additional observations from a re-analysis of the deposited data

Results flagged for a closer look

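Among the 26 called genes, each genotype's 6 values, after removal of the treatment effect, were checked for an array far from the others by Dixon's ratio of its gap to the whole range. Of 52 sets, 4 passed the critical value for 6 values, where chance gives about 1 in 20. They were Col19a1 on Ifnb+/+ +IFN-b replicate 2 (0.81), Ccl5 on Ifnb-/- +IFN-b replicate 2 (0.64), H2-D1 on Ifnb+/+ +IFN-b replicate 3 (0.70) and Il1a on Ifnb-/- replicate 3 (0.67).

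The genotype difference changed with IFN-β in 4 genes by the interaction test of limma. Treated minus untreated, the change was 1.74 for Adam8, 1.73 for Trem2, 1.07 for Ctsd and 1.24 for Slc37a2. Leaving out both arrays with low Xist kept Trem2 (1.81, adjusted p = 0.0291), while Adam8 (1.70, adjusted p = 0.0623), Slc37a2 (1.23, adjusted p = 0.116) and Ctsd (1.02, adjusted p = 0.151) no longer passed.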

How the results depend on the processing

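None of 747 values of the 26 called genes under the alternatives changed sign, and 413 stayed called. Several alternatives kept the same difference and changed only the threshold, the variance or the test, so no sign could change there. Where every probe set was fitted on its own, a gene was still read from its brightest one. The Snapc3 probe set that differed by -0.94 was thus not among these values. The 26 calls became 17 when a gene's probe sets were averaged, 42 with 4 group means, 103 with array weights (the lowest weight, 0.19, fell to untreated Ifnb+/+ replicate 1), 4 at an adjusted p under 0.01, 79 by the methods' t-test at 1.5-fold and an unadjusted p and 3 after its adjustment, 0 in treated arrays alone, and 3 to 30 when 1 array was left out. The replicate number as a block gave 11 calls, where same-numbered arrays deviated from their group means with correlations from -0.50 to 0.43 and 5 of 12 arrays correlated best with their own number, so the numbers were not taken as pairs. For the interaction, the 4 calls became 2 with every probe set on its own, with genes of a mean of at least 5 and with quantile normalization once more, 0 with the replicate block, 4103 with array weights, 0 at an adjusted p under 0.01 and 0 to 1237 when 1 array was left out. Among genes not called, the averaged difference changed sign in treated arrays alone for Slc37a2 (0.24), Ctsd (0.37), Adam8 (0.67) and Trem2 (0.71), in untreated arrays alone for Ifnb1 (-0.02), and with averaged probe sets for Ifnar1 (0.01). The causes were not tested. Genes near the lower end of the scale, such as Il1a, have little room for a lower level to show.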
